A study of Mus musculus with 2 samples.

Results

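Amino acid uptake and serine synthesis were followed through 10 genes, taken by symbol from the 27775 features of the count tables. Of these, 5 encode amino acid carriers or their partner (Slc7a5, Slc3a2, Slc7a11, Slc1a5 and Slc38a2), 3 encode enzymes that make amino acids (Asns, Phgdh and Psat1), and the last pair, Trib3 and Chac1, are stress-response genes. Slc7a5, also called LAT1, brings leucine and other large neutral amino acids into the cell and reaches the membrane bound to the heavy chain Slc3a2 (CD98). Slc7a11 uses the same heavy chain to exchange cystine for glutamate, while Slc1a5 and Slc38a2 carry glutamine and small neutral amino acids with sodium. Phgdh starts the serine branch off glycolysis and Psat1 takes the next step, and Asns makes asparagine. When amino acids run short or unfolded protein builds up, translation of the transcription factor Atf4 rises, and many of these genes, Trib3 and Chac1 among them, are known targets of it through a promoter element called CARE.

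The cells came from lacrimal glands, the source of the watery part of tears, of wild-type CD1 mice, an outbred stock. The E16 library was made from embryos at embryonic day 16 and the P4 library from pups at postnatal day 4. Neither group carried a transgene or received a treatment, per the labels. At each stage the glands were pooled and digested with Liberase and DNase. How many animals went into a pool is not given.

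The values are counts of unique molecular identifiers (UMIs), tags that mark the transcripts captured from each cell, over barcodes with at least 200 detected genes. This left 259 of 437 barcodes and 1711606 UMIs in E16, and 406 of 687 barcodes and 1975814 UMIs in P4, with 0 barcodes in common. Median depth per cell was 5802 and 3767 UMIs. Each stage was 1 library, so no difference between stages has a replicate check and no test across samples was possible. All intervals are 95% intervals for counting error only. Levels are counts per 1000000 UMIs of a class of cells (CPM), and a ratio between stages is a ratio of CPM with an exact conditional interval.

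The promoters of 8 of the 10 genes were in the RefSeq windows used here, each from 250 bases before to 50 bases after a start on GRCm38.p6. Slc7a5 and Slc1a5 were not among them. The core of the CARE element, TGATGNAA on either strand, was searched because it is the sequence through which Atf4 is known to act on this pathway. It was found in 3.97% of 32851 windows of all genes and in the windows of 4 members: 2 matches in Slc7a11 and 1 each in Asns, Chac1 and Trib3. The stretches around those before the start are printed 5′ to 3′ on the strand of the gene, with the match in capitals.
Slc7a11: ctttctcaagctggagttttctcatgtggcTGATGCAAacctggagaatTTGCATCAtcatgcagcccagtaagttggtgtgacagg
Asns: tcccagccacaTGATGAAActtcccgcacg
Chac1: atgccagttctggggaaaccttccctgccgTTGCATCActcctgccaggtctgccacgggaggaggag
The Slc7a11 stretch is chr3:50443623-50443709 on the minus strand and lies upstream of the gene in the GENCODE annotation, with matches that face opposite ways. The Chac1 stretch is chr2:119351019-119351086 on the plus strand, also upstream of the annotated gene, and its match reads on the opposite strand. The Asns stretch, chr6:7693214-7693243 on the minus strand, is upstream of the RefSeq start but inside the longer gene span of GENCODE. In Trib3 the match lay 14 bases after the start. Slc3a2, Slc38a2, Phgdh and Psat1 had no match in these windows. A match is a description of the letters, and no binding was measured.

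Cells were clustered with the 10 genes left out of the variable genes. The 18 clusters were named from marker genes, except cluster 5, which stayed unnamed. Epithelial-like cells numbered 89 in E16 and 98 in P4, and mesenchyme-like cells 97 and 178. The epithelial-like numbers were 38 and 65 at a clustering resolution of 0.5, and 72 and 89 at 2, in place of the 1 used. The mesenchyme-like numbers were unchanged at these resolutions. The classes were named from the same marker lists, so the marker levels that follow do not check the names. All 15 epithelial markers were detected in the epithelial-like cells of both libraries, with 13 in at least 20% of cells in E16 and 11 in P4. Their summed levels were 4342 and 7993 CPM in E16 and P4, against 60.6 and 136 CPM in mesenchyme-like cells. All 15 also had a UMI in P4 mesenchyme-like cells, though 0 of them in 20% of these cells. All 12 mesenchyme markers were detected in mesenchyme-like cells, at 18560 and 46778 CPM, against 468 and 1214 CPM in epithelial-like cells, where Twist1 was at 0 in both libraries. Haemoglobin and other erythroid markers stood at 2029 and 1944 CPM in the epithelial-like cells and at 2107 and 2251 CPM in the mesenchyme-like cells, a like level in both classes and at both stages. The part of free RNA in the results was not tested.

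The clusters that made up a class differed between stages. Cluster 0, led by Epcam, held 48 of the E16 epithelial-like cells and 6 of those from P4. Cluster 1, led by Fxyd3, Krt14 and Mia, held 33 and 24, and its cells were shallow, with a median of 1434 UMIs. Cluster 9, led by Wfdc18, Krt18 and Krt8, held 8 and 15. Cluster 16, led by Dcpp3, Dcpp2 and Dcpp1, genes of secreted salivary and lacrimal proteins, held 53 cells, all from P4. Among mesenchyme-like cells, clusters 2 and 3 held 79 of the 97 E16 cells. Dlk1 and Crabp1 were among the leading genes of both, but also of cluster 7. Clusters 7, 11 and 13 held 156 of the 178 P4 cells, and the last pair of these were led by Mfap5 and Clec3b.

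Summed over the 10 genes, epithelial-like cells held 720 UMIs in E16 and 416 in P4, which is 1145 and 565 CPM. Mesenchyme-like cells held 191 and 360 UMIs, or 297 and 440 CPM. Mast-like cells had the highest summed level in each library, at 1829 CPM over 9 E16 cells and 1361 CPM over 4 P4 cells, and erythroid-like cells the lowest, at 74.2 and 72.3 CPM. The main stage difference was in the epithelium, where Slc7a5 was far lower in P4. Slc1a5 went the other way, with higher levels in P4 in both classes. Trib3, Chac1 and Slc7a11 were at or near 0 throughout.

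**Figure D1:**
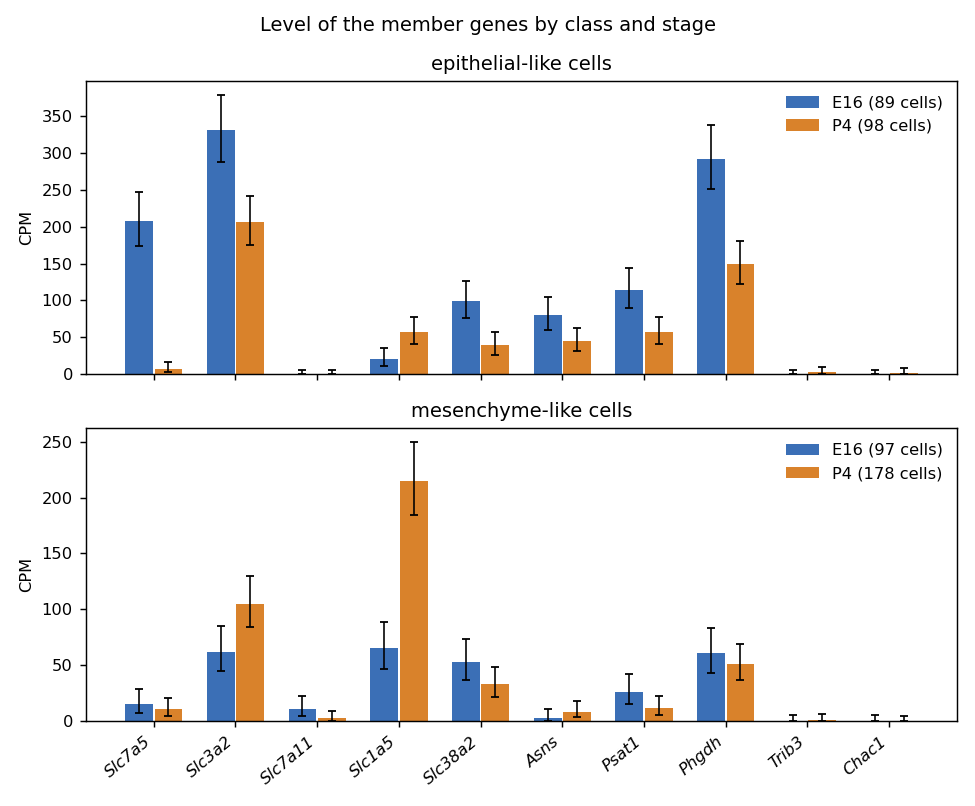
Level of each gene in CPM (vertical axis) in epithelial-like cells (upper panel) and mesenchyme-like cells (lower panel), for E16 and P4. Bars are summed UMIs per 1000000 of the class and error bars are exact Poisson 95% intervals for counting error. Slc7a5 stands at 208 CPM in E16 epithelium and 6.79 CPM in P4 epithelium, and the highest of the Slc1a5 levels shown, 215 CPM, is in P4 mesenchyme.

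Slc7a5 (chr8:121881150-121907694, minus strand, mm10) gave 131 UMIs in the E16 epithelial-like cells and 5 UMIs in those of P4. The levels were 208 CPM (174 to 247) and 6.79 CPM (2.20 to 15.8), 30.7-fold lower in P4 (12.8 to 96.1). Only 0.279% of the 5014 genes with at least 30 UMIs in this comparison had a lower ratio. In E16 the gene was seen in 47 of 89 cells (52.8%, exact Clopper-Pearson interval 41.9 to 63.5%), 18 of them with 3 or more UMIs, and the highest cell held 9. In P4 it was seen in 5 of 98 cells (5.10%, 1.68 to 11.5%), always as a single UMI. The gene was thus spread over many E16 cells, although the 10 highest held 48.1% of its UMIs. Cluster 0, with 83.4% of all UMIs of the E16 class, held 119 of the 131.

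Shares of cells with a UMI depend on depth, so each cell was also thinned to 1342 UMIs. The Slc7a5 share was then 22.1% (17 of 77 cells, 13.4 to 33.0%) in E16 epithelium and 0 of 75 in P4 epithelium, so that a share up to 4% is possible by the 3-count floor for zeros, and up to 4.80% by the exact interval. As a measure of free RNA, erythroid-like cells, whose own level of the gene at this stage is not known from other data, carried Slc7a5 in 4 of 25 E16 cells (16%) and 2 of 12 P4 cells. Their median depths were 6700 and 5439 UMIs, above the epithelial medians of 4856 and 3371. The E16 epithelial level, 208 CPM, was above the erythroid-like level of 22.8 CPM beyond both intervals. Erythroid-like totals include haemoglobin, however, which lowers the CPM of every other gene in these cells. In E16 barcodes with under 200 detected genes, Slc7a5 stood at 220 CPM of the UMIs that were not haemoglobin, from 5 UMIs. The part of free RNA in the epithelial level was not tested. The interval of the P4 epithelial level overlapped that of every class with at least 20 cells.

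The stage difference in Slc7a5 was also present within cluster 0, at 227 CPM (188 to 272) in E16 and 0 UMIs in the 6 P4 cells (up to 64.6 CPM from 3 counts, 79.4 CPM by the exact interval). Cluster 1 had 180 CPM (90 to 323) in E16 and 0 UMIs in P4 (up to 95.8 or 118 CPM), which overlap, and cluster 9 had 1 UMI in E16. In P4 the cells of clusters 0, 1 and 9 together held 0 UMIs, at least 10.5-fold lower than E16 when 3 counts over the class are taken as the floor. All 5 P4 UMIs were in the Dcpp-led cluster, at 8.54 CPM. Over the other settings tried the ratio lay between 16.8- and 36.2-fold lower in P4. The gene overlaps Gm20388 on the opposite strand, which had 0 UMIs in both classes and libraries.

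Slc7a5 was low in mesenchyme-like cells, with 10 UMIs in 8 of 97 E16 cells (15.5 CPM, 7.46 to 28.6) and 9 UMIs in 9 of 178 P4 cells (11 CPM, 5.03 to 20.9). Both levels overlapped that of erythroid-like cells. In E16 the epithelial level was 13.4-fold higher than the mesenchymal one (7.06 to 28.6). The highest level of the gene was in mast-like cells, with 21 UMIs in 7 of 9 E16 cells, or 937 CPM (580 to 1432). In P4, 5 UMIs in 1 of 4 mast-like cells gave 567 CPM, so that value rests on 1 cell.

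Slc3a2 (chr19:8706882-8723369, minus strand), the heavy chain, gave 208 UMIs in E16 epithelium and 152 in P4 epithelium. The levels were 331 CPM (287 to 379) and 206 CPM (175 to 242), 1.60-fold lower in P4 (1.29 to 1.99). In E16 58 of 89 cells had a UMI and in P4 41 of 98, and after thinning the shares were 40.3% (29.2 to 52.1%) and 24.0% (14.9 to 35.3%), which overlap. This difference rested on the Dcpp-led cluster, which stood at 99.1 CPM (75.2 to 128) and held 79.5% of the UMIs of the P4 class. Within cluster 0 the E16 level was 334 CPM (286 to 387) and that of P4 was higher, 581 CPM (383 to 846), with intervals that just meet. Cluster 1 showed 443 and 479 CPM, and cluster 9 showed 138 and 708 CPM, where 31 of the 52 P4 UMIs came from 1 cell and left 294 CPM without it. Without the Dcpp-led cluster Slc3a2 was 1.88-fold higher in P4 (1.46 to 2.41), and with every cell weighted equally it was 1.13-fold higher. Both values include that 1 cell of cluster 9, and neither was computed without it.

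In the clusters present at both stages the heavy chain was thus not lower in P4, unlike Slc7a5 in cluster 0. In the E16 epithelium 40 of the 47 cells with a Slc7a5 UMI also had a Slc3a2 UMI (85.1%), against 42.9% of the cells without Slc7a5. The former were deeper, with a median of 9241 UMIs against 2136, and the part of depth in this was not tested. In mesenchyme-like cells Slc3a2 was 62.2 CPM (44.4 to 84.7) in E16 and 105 CPM (84.1 to 130) in P4, 1.69-fold higher in P4 (1.15 to 2.53). Within cluster 3 the values were 69.2 and 334 CPM, with 12 of the 16 P4 UMIs in 1 cell and 92.9 CPM without it. With each library clustered alone, which left 56 mesenchyme-like cells in P4, it was 1.12-fold lower in P4. In P4 macrophage-like cells Slc3a2 reached 295 CPM (212 to 401), an interval that overlaps that of P4 epithelium.

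Slc7a11 (chr3:49892526-50443614, minus strand), the cystine carrier, had 0 UMIs in the epithelial-like cells of both libraries. With 3 counts as the limit of a 0, this allows levels of up to 4.77 CPM at E16 and 4.07 CPM at P4. Mesenchyme-like cells held 7 UMIs in 6 E16 cells (10.9 CPM, 4.38 to 22.4) and 2 UMIs in 2 P4 cells (2.45 CPM). The P4 over E16 ratio of 0.225 had an interval from 0.0228 to 1.18, which holds 1. Gm37854, which overlaps the gene on the opposite strand, had 0 UMIs in both classes.

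Slc1a5 (chr7:16781340-16798274, plus strand), a glutamine carrier, was the only member, of those counted, at least 2-fold higher in mesenchyme than in epithelium at both stages. Mesenchyme-like cells held 42 UMIs in E16 and 176 in P4. The levels were 65.3 CPM (47.1 to 88.3) and 215 CPM (185 to 249), 3.29-fold higher in P4 (2.34 to 4.73). Of all 5737 genes counted in this class, 97.1% had a lower ratio. After thinning, 8.25% of E16 cells (3.63 to 15.6%) and 22.2% of P4 cells (16.3 to 29.0%) had a UMI. Erythroid-like cells had 0 Slc1a5 UMIs in 25 E16 and 12 P4 cells, and the exact intervals of their thinned shares, up to 13.7% and 26.5%, overlapped those of mesenchyme.

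The high P4 cells were mainly those of the clusters led by Mfap5 and Clec3b. Cluster 13 stood at 406 CPM (320 to 509) and cluster 11 at 236 CPM (175 to 312), against 111 CPM (76.4 to 156) in cluster 7 of the same library. In cluster 13 a single cell held 27 of 76 UMIs, and the level without it was 271 CPM. Within cluster 2 Slc1a5 was 35.7 CPM (14.4 to 73.6) in E16 and 204 CPM (117 to 331) in P4. Cluster 7 showed 128 CPM in E16 (55.4 to 253) and 111 CPM in P4, but 5 of the 8 E16 UMIs were in 1 cell, and without the highest cell of each library the levels were 53.7 and 106 CPM. Cluster 3 showed 69.2 CPM and, from 2 UMIs, 41.7 CPM (5.05 to 151), so no order can be read there. Without the clusters led by Mfap5 and Clec3b the class was 1.86-fold higher in P4 (1.21 to 2.89).

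Epithelial levels of Slc1a5 were below those of mesenchyme. E16 gave 13 UMIs and P4 gave 42. The levels were 20.7 CPM (11 to 35.4) and 57.0 CPM (41.1 to 77.1), 2.76-fold higher in P4 (1.45 to 5.60). Of the 42 P4 UMIs, 38 were in the Dcpp-led cluster, at 64.9 CPM. Without that cluster the ratio was 1.28 with an interval from 0.304 to 4.14, so a difference was not detectable at this depth. Thinned shares were 0 of 77 cells in E16 and 3 of 75 in P4, near the level of 1 UMI.

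Slc38a2 (chr15:96687392-96699730, minus strand), also called SNAT2, takes up small neutral amino acids. It gave 62 UMIs in E16 epithelium and 29 in P4, 98.6 CPM (75.6 to 126) and 39.4 CPM (26.4 to 56.5), 2.50-fold lower in P4 (1.59 to 4.04). The difference was smaller within clusters present at both stages, at 105 and 86.1 CPM in cluster 0 and 115 and 81.7 CPM in cluster 9. Cluster 1 went the other way, at 32.8 and 63.9 CPM, from 2 UMIs in each library. The Dcpp-led cluster stood at 29.0 CPM, and without it the ratio was 1.24-fold lower in P4 with an interval that holds 1. Weighting cells equally gave 1.22-fold. In mesenchyme-like cells it was 52.9 CPM (36.6 to 73.9) and 33.0 CPM (21.8 to 48.0), and the interval of the 1.60-fold lower P4 level, 0.938 to 2.76, holds 1. Endothelial-like cells of P4 had 107 CPM from 9 UMIs, the highest level in that library among classes of at least 20 cells, and its interval overlapped that of the next class.

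**Figure D2:**
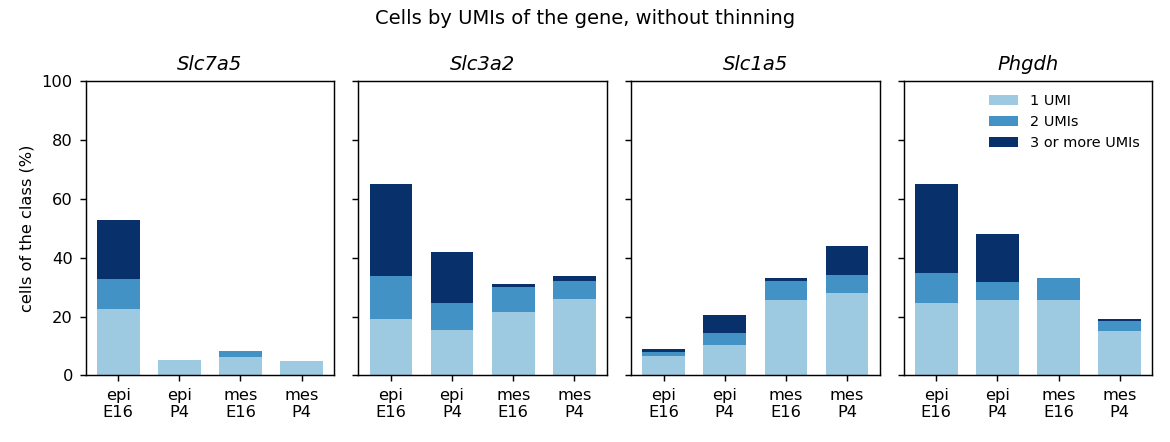
Share of cells of each class (vertical axis, percent) with 1, 2 or at least 3 UMIs of Slc7a5, Slc3a2, Slc1a5 and Phgdh, for epithelial-like (epi) and mesenchyme-like (mes) cells of each stage, without thinning. Slc7a5 is seen in 52.8% of E16 epithelial-like cells and in 5.10% of those from P4, while Slc1a5 is most frequent in P4 mesenchyme, at 43.8%.

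The enzymes had higher levels in epithelium than in mesenchyme at both stages. Phgdh (chr3:98313170-98339990, minus strand), the entry enzyme of serine synthesis, gave 184 UMIs in E16 epithelium and 110 in P4 epithelium. The levels were 293 CPM (252 to 338) and 149 CPM (123 to 180), 1.96-fold lower in P4 (1.54 to 2.51). A UMI was seen in 58 of 89 E16 cells and 47 of 98 P4 cells, and after thinning in 20.8% (12.4 to 31.5%) and 10.7% (4.72 to 19.9%). Cluster 0 went from 313 CPM (267 to 364) in E16 to 43.1 CPM (5.22 to 156) in P4, the latter from 2 UMIs. Cluster 9 showed 185 and 191 CPM and the Dcpp-led cluster 154 CPM. Phgdh was lower in P4 in all 14 settings tried, by 1.46- to 2.21-fold. In mesenchyme-like cells Phgdh stood at 60.6 CPM (43.1 to 82.9) and 51.3 CPM (37.0 to 69.4), with overlapping intervals.

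Psat1 (chr19:15904678-15947337, minus strand), the next enzyme of the branch, gave 72 and 42 UMIs in epithelium. The levels were 115 CPM (89.6 to 144) in E16 and 57.0 CPM (41.1 to 77.1) in P4, 2.01-fold lower in P4 (1.35 to 3.01). Within cluster 0 the level was 128 CPM in E16 and 129 CPM in P4, the latter from 6 UMIs, and the Dcpp-led cluster stood at 54.7 CPM. With every cell weighted equally the P4 level was 1.25-fold lower. Mesenchyme-like cells held 17 UMIs in E16 and 10 in P4, 26.4 CPM (15.4 to 42.3) and 12.2 CPM (5.86 to 22.5). The processed pseudogene Gm3329 overlaps Psat1 on the opposite strand and was not among the counted features. Of the 58 E16 epithelial-like cells with Phgdh, 53.4% also had Psat1, against 12.9% of those without. The cells with Phgdh had a median of 7287 UMIs and those without 1965, and the part of depth was not tested.

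Asns (chr6:7675169-7693254, minus strand), which makes asparagine from aspartate and glutamine, gave 50 UMIs in E16 epithelium and 33 in P4. The levels were 79.5 CPM (59.0 to 105) and 44.8 CPM (30.8 to 62.9), 1.78-fold lower in P4 (1.12 to 2.84). A single E16 cell held 17 of the 50 UMIs, and without the highest cell of each library the difference was 1.37-fold with an interval that holds 1. In E16, 49 of the 50 UMIs were in cluster 0, and in P4, 29 of 33 were in the Dcpp-led cluster and 4 in cluster 1. Without the Dcpp-led cluster Asns was 3.01-fold lower in P4, the largest difference of the 14 settings, from those 4 P4 UMIs. With cells weighted equally it was 1.19-fold higher. Asns was nearly absent from mesenchyme-like cells, with 2 UMIs in E16 and 7 in P4. All 21 E16 epithelial-like cells with Asns also had Phgdh, against 54.4% of the others, and they too were deeper, with a median of 11238 UMIs against 2735.

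Trib3 (chr2:152337422-152344032, minus strand), a pseudokinase that binds Atf4, and Chac1 (chr2:119351229-119354381, plus strand), which breaks down glutathione, are among the genes most induced by the Atf4 pathway in other systems. Both had 0 UMIs in all E16 cells kept, which allows up to 1.75 CPM. In P4 Trib3 gave 3 UMIs in 3 cells and Chac1 gave 1 UMI. Neither could be compared between stages or classes at this depth.

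**Figure D3:**
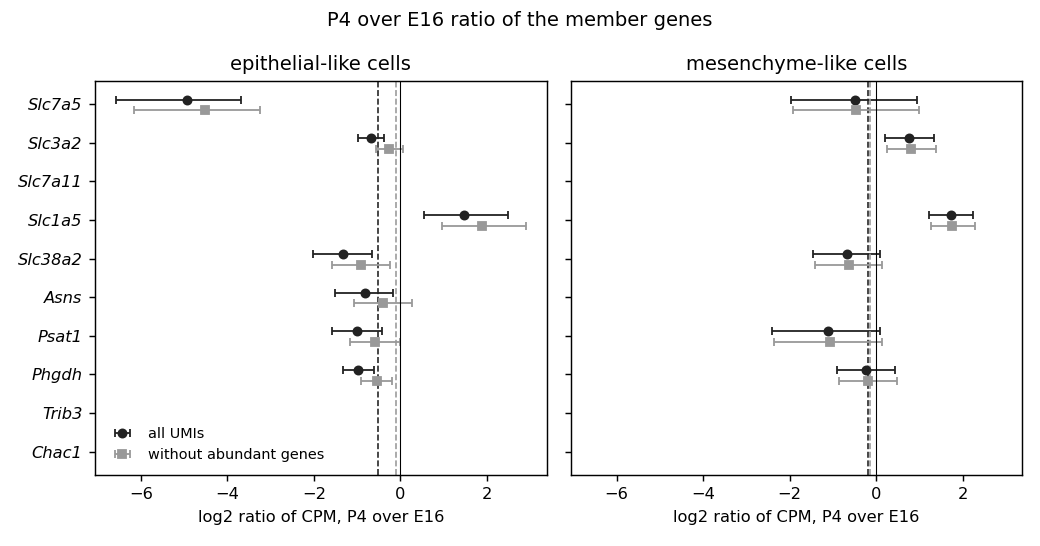
Log2 ratio of CPM, P4 over E16 (horizontal axis), for each gene with at least 10 UMIs, in epithelial-like cells (left) and mesenchyme-like cells (right), from all UMIs (circles) and with the abundant genes left out of the totals (squares). Bars are exact 95% counting intervals and dashed lines mark the median of all genes counted, -0.53 and -0.10 in epithelium. Slc7a5 lies far left of both lines in epithelium, at -4.94 and -4.52, and Slc1a5 right of zero in both classes.

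CPM is a share of all UMIs, and in the Dcpp-led cluster of P4 the abundant genes, Dcpp1 to Dcpp3 among them, made up 36.8% of the UMIs. The median log2 ratio of all 5014 genes counted was -0.53, and -0.10 once the 17 genes that make up at least 0.5% of the UMIs of the class in either library were left out of the totals. Of the 7 members with at least 30 UMIs in epithelium, 3 were at least 2-fold lower in P4 (Slc7a5, Slc38a2 and Psat1), against 27.5% of all genes counted. A single member, Slc1a5, was at least 2-fold higher, against 7.00%. Without the abundant genes only Slc7a5 remained at least 2-fold lower, against 14.0% of genes, and Slc1a5 at least 2-fold higher, against 12.0%. Phgdh was then 1.46-fold lower (1.15 to 1.87), Psat1 1.5-fold (1.01 to 2.25) and Slc3a2 1.20-fold (0.966 to 1.48). Slc7a5 was 22.9-fold lower (9.57 to 71.7) on that scale. Apart from Slc7a5, the members lower in P4 thus lay within 1 log2 unit of the median of all genes on either scale.

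In mesenchyme 4 members had at least 30 UMIs. Of these, 0 were at least 2-fold lower in P4, against 13.6% of the 5737 genes counted, and 1, Slc1a5, was at least 2-fold higher, against 6.83%. The counts were the same without the abundant genes, against 12.6% and 7.30% of all genes. The median log2 ratio of all genes was -0.18, or -0.13 without abundant genes, so scaling moved the mesenchyme values little.

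The classes of a library were also compared with each other, a comparison within 1 pool of cells. In E16, 5 of 7 members counted were at least 2-fold higher in epithelium, against 14.6% of 5648 genes: Slc7a5, Slc3a2, Asns, Psat1 and Phgdh. Slc1a5 was the only member at least 2-fold lower, against 20.1% of genes, and was 3.16-fold higher in mesenchyme (1.66 to 6.41). Without the abundant genes the E16 counts were the same, against 14.6% and 20.2%. In P4, 3 of 6 members counted were at least 2-fold higher in epithelium, against 11.4% of 5394 genes, namely Asns, Psat1 and Phgdh. Slc1a5 alone was at least 2-fold lower, against 29.6%, and was 3.77-fold higher in mesenchyme (2.68 to 5.42). Without the abundant genes Slc3a2 passed 2-fold as well, which made 4 of 6 against 16.8%, and Slc1a5 was the 1 lower, against 22.5%.

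Over all cells kept, whatever their class, 2 of 7 members counted were at least 2-fold lower in P4 (Slc7a5 and Psat1), against 14.2% of 8770 genes, and Slc1a5 was at least 2-fold higher, against 8.48%. Slc7a5 was 8.27-fold lower (5.38 to 13.3) and Slc3a2 nearly level, at 169 and 160 CPM. These values also depend on how many cells of each class a library held.

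The size of the difference between classes was similar at both stages for Psat1, 4.33-fold (2.53 to 7.84) in E16 and 4.66-fold (2.30 to 10.4) in P4. For Phgdh it was 4.83-fold (3.4 to 7.0) and 2.91-fold (2.02 to 4.26). For Asns it was 25.6-fold in E16, where mesenchyme had only 2 UMIs (6.72 to 217), and 5.23-fold in P4 (2.28 to 14.0). Slc3a2 went from 5.32-fold (3.78 to 7.66) to 1.96-fold (1.5 to 2.59). Slc7a5 went from 13.4-fold higher in epithelium to 1.62-fold lower with an interval of 0.488 to 6.16. None of these changes between stages was tested.

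**Figure D4:**
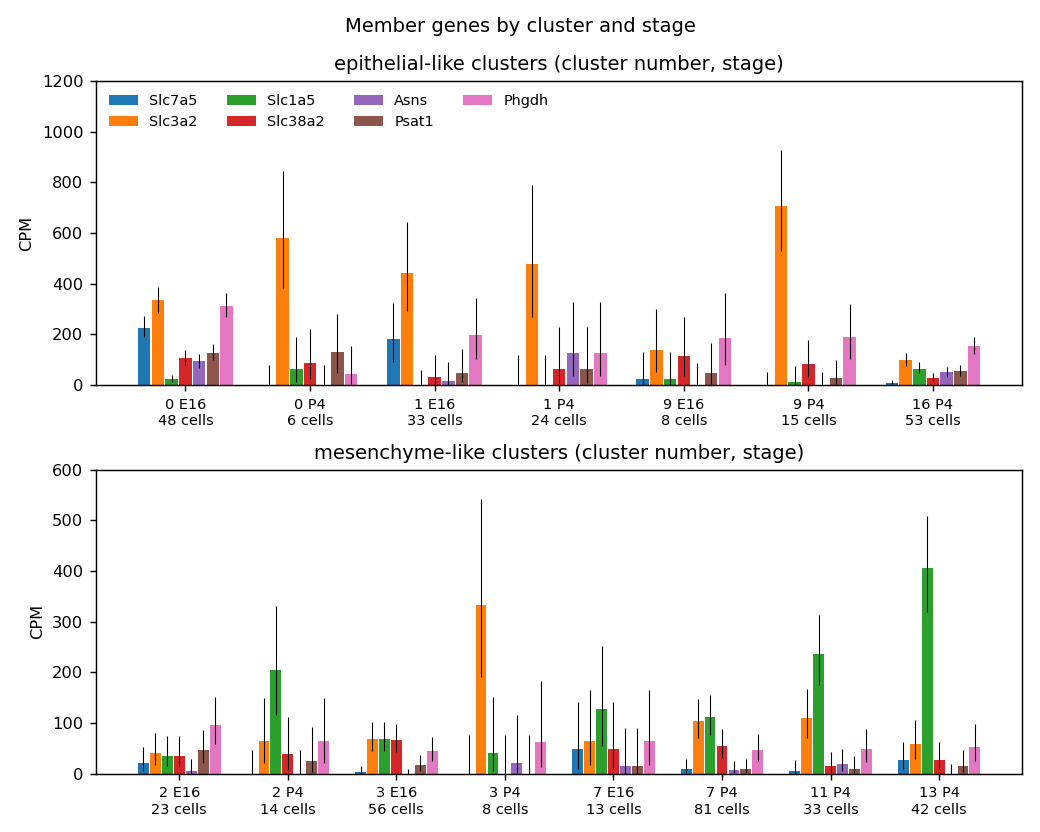
Level in CPM (vertical axis) of the 7 genes with at least 30 UMIs in epithelium, by cluster and stage (horizontal axis, with cell numbers), for epithelial-like clusters (upper panel) and mesenchyme-like clusters (lower panel); groups under 5 cells are left out. Error bars are exact Poisson 95% intervals. Slc7a5 is seen in E16 clusters 0 and 1 and is at 0 in the P4 cells of clusters 0, 1 and 9, and Slc1a5 is highest in P4 clusters 13 and 11.

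The number of members seen in a single cell was also counted, without thinning. Of the E16 epithelial-like cells 49.4% had UMIs of at least 3 members and 10.1% of none, and in P4 32.7% and 25.5%. In mesenchyme-like cells 22.7% had at least 3 in E16 and 11.8% in P4, although the summed level was higher in P4, at 297 and 440 CPM. Median depth was lower in P4, at 6188 and 4438 UMIs in mesenchyme and 4856 and 3371 in epithelium. The part of depth in these shares was not tested. At most 7 of the 10 genes were seen in 1 cell. Pairs of members were not always seen together, though from few cells. In E16 epithelium 5 of the 8 cells with Slc1a5 (62.5%) and 65.4% of those without had Slc3a2. Median depths were 15774 and 3891 UMIs. In mesenchyme Psat1 was seen in 5 of the 32 E16 cells with Phgdh (15.6%) and 13.8% of those without. In P4 it was seen in 2 of 34 (5.88%) and in 5.56%.

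Other genes of the same pathways were taken from lists. Of 27 other amino acid carriers, 3 had at least 30 UMIs in epithelium, and 2 were at least 2-fold lower in P4, against 27.5% of all genes counted. Only Slc38a4 was without the abundant genes, against 14.0%. Slc38a4, a relative of Slc38a2, gave 36 UMIs in E16 and 3 in P4, a 14.1-fold lower level (4.44 to 71.4). Slc38a1 gave 31 and 15 UMIs, 2.42-fold lower (1.27 to 4.83), and Slc38a10 15 and 20. In mesenchyme 3 were counted, and 0 were at least 2-fold lower in P4, against 13.6% of all genes. Slc38a10 alone was at least 2-fold higher, against 6.83%, by 2.28-fold (1.35 to 4.0).

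Of 19 further enzymes of serine, glycine and folate-linked carbon metabolism, 13 were counted in epithelium, 5 were at least 2-fold lower in P4 (Psph, Shmt2, Mthfd2, Gcsh and Cth), against 27.5% of all genes, and 0 higher, against 7.00%. Their median log2 ratio was -0.67, against -0.53 over all genes. Psph, which completes serine synthesis after Psat1, gave 226 UMIs in E16 and 42 in P4. Its levels were 359 and 57.0 CPM, 6.30-fold lower in P4 (4.52 to 8.99). Tyms, which makes thymidylate, was 278 and 171 CPM, and Mat2a, which makes S-adenosylmethionine, 175 and 174 CPM. Without the abundant genes 3 were at least 2-fold lower (Psph, Mthfd2 and Cth), against 14.0%, with a median of -0.25 against -0.10. In mesenchyme Psph stood at 42.0 and 42.8 CPM. Phgdh, Psat1 and Psph, the 3 enzymes of serine synthesis, thus all had lower levels in the P4 epithelial class as a whole, Psph by the most.

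Of Atf4 and 20 of its known targets outside the members, 15 were counted in epithelium, 3 at least 2-fold lower in P4 (Ddit4, Cebpb and Gadd45a) and 4 at least 2-fold higher (Eif4ebp1, Nupr1, Herpud1 and Pycr1). The shares of all genes were 27.5% and 7.00%, and the median log2 ratio was -0.23, against -0.53. Without the abundant genes 2 were lower and 5 higher, against 14.0% and 12.0%, with a median of 0.19 against -0.10. Cebpb was then no longer among the lower genes and Atf3 was among the higher. Atf4 itself gave 191 CPM in E16 and 155 CPM in P4, with a ratio interval that holds 1. Among the list's genes with the most UMIs, Cebpb was 1451 and 643 CPM, Nupr1, a stress-induced chromatin protein, 82.7 and 586 CPM, and Atf3 170 and 267 CPM. In mesenchyme 16 were counted, 2 lower and 3 higher, against 13.6% and 6.83%, with a median of 0.18 against -0.18. Nupr1 was again higher in P4, at 76.2 and 517 CPM, and Atf4 stood at 193 and 172 CPM. The targets did not move one way in either class.

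All 20 cytosolic tRNA synthetases, which load amino acids onto tRNA, were counted in epithelium, 7 at least 2-fold lower and 0 higher in P4, against 27.5% and 7.00% of all genes. The median log2 ratio was -0.80, against -0.53 over all genes. Aars was 243 and 106 CPM, Eprs 175 and 78.7 CPM, and Nars 122 and 105 CPM. Without the abundant genes 0 of the 20 were at least 2-fold lower, against 14.0%, and the median was -0.38 against -0.10. In mesenchyme 17 were counted and 2 (Kars and Mars) were at least 2-fold lower, against 13.6%, and again 0 without the abundant genes, against 12.6%.

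Genes that respond to tissue digestion were compared because the glands had been digested. In epithelium 15 of 16 were counted, with 2 at least 2-fold lower in P4 (Hsp90aa1 and Hsph1) and 2 higher (Jund and Ier3), against 27.5% and 7.00% of all genes. Their median log2 ratio was -0.11, against -0.53 over all genes. Leaving out the abundant genes, 2 were lower and 5 higher (Junb, Jund, Ier3, Atf3 and Zfp36), against 14.0% and 12.0%, with a median of 0.32 against -0.10. Junb was 1298 and 2131 CPM, Ier2 1231 and 1587 CPM, and Jun 1164 and 1082 CPM. In mesenchyme 0 of 15 passed 2-fold in either direction, against 13.6% of all genes lower and 6.83% higher. Their part in the levels of the members was not tested.

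For each member with at least 100 UMIs, the genes most like it were taken by Pearson correlation of log2(CPM + 20) over 20 groups of at least 10 cells, each 1 cluster in 1 library. These groups share libraries, depth and cell class, so the values are a description. Slc7a5 was nearest to Slc2a1 (r = 0.79), the glucose carrier GLUT1, then Crispld2 (0.76) and Gpx2 (0.73). Slc3a2 was nearest to Cox5a (0.84), Atp6v1f (0.83) and Hprt (0.83). Slc1a5 was nearest to Nsdhl (0.87), Creb3l1 (0.86) and Ankrd12 (0.85), and Slc38a2 to Ccdc115 (0.88), Ash2l (0.84) and Snrpc (0.83).

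Among the enzymes, Phgdh was nearest to Got2 (0.87), the mitochondrial aspartate aminotransferase, then Brcc3 (0.85) and Lmo4 (0.83). Psat1 was nearest to Bex1 (0.79), Gemin2 (0.79) and Mthfd2 (0.78), a mitochondrial folate enzyme of the list above. Asns was nearest to Emid1 (0.83), Lgals7 (0.75) and Arg2 (0.73). No member was among the nearest genes of another, since members were left out of the candidates.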

How the data were processed

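The authors deposited raw UMI counts for every gene and barcode, and the values are whole. Cell Ranger and mm10 are named in the submitters' processing notes, while the annotation, settings and version are not stated. The members and lists were chosen with earlier results of these data known. Positions came from GENCODE M21. All 13 mitochondrial features had 0 UMIs, so damaged cells could not be judged from them.

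Cells with at least 200 detected genes were kept, counts scaled to 10000 per cell and log-transformed, and 2000 variable genes without the members clustered (scanpy 1.11.5, 20 components, 15 neighbours, Leiden resolution 1). Scrublet called 2 doublets in E16 and 1 in P4, which were kept. This is a low rate, so doublets may remain. A cluster took the class of its highest-scoring markers, with at least 3 of them detected in at least 20% of its cells. Pericyte and smooth muscle markers were joined as mural, a choice made after values were seen, since myoepithelium shares contractile genes. The choice changes which cells are epithelial-like, and no setting was run with the lists kept apart. Names rebuilt this way may differ from the authors'.

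UMIs were summed per class and library. Genes counted as lower or higher had at least 30 UMIs over both libraries and a ratio of at least 2-fold. All 10 members are named, with up to 3 genes of each list by most UMIs, plus those past 2-fold. The ratio script was tested on simulated Poisson counts of whole classes. These had no UMIs gathered in single cells, so the test does not cover that. Intervals used scipy 1.17.1. Sequences are from RefSeq. The mesenchyme counts of the list of serine, glycine and folate enzymes are not reported here.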

Additional observations from a re-analysis of the deposited data

Results flagged for a closer look

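Slc7a5 had 5 UMIs in the E16 barcodes with under 200 detected genes, which no comparison between stages used, above the 3 counts taken as the limit of a 0. Slc3a2 had 7 UMIs in such barcodes of P4. Haemoglobin made up 95.7% of the UMIs of these barcodes in E16 and 95.4% in P4. Slc3a2 also had 7 UMIs in the 6 E16 cells and 11 UMIs in the 15 P4 cells of the unnamed cluster led by Cd74, Ctss and Lyz2.

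The ratio of P4 over E16 of Slc3a2 had opposite signs in the main classes, at -0.68 on the log2 scale in epithelial-like cells and 0.76 in mesenchyme-like cells. With 1 library per stage this difference was not tested. Both signs turned under alternatives. In epithelium Slc3a2 was 1.88-fold higher in P4 without the Dcpp-led cluster and 1.13-fold higher with cells weighted equally. Both values include 1 P4 cell with 31 Slc3a2 UMIs, and neither was computed without it. Without the abundant genes the epithelial ratio was -0.26 on the log2 scale, with an interval that holds a ratio of 1. In mesenchyme the ratio was 0.678 at 500 detected genes, and 0.890 with each library clustered alone. At 500 detected genes the cells were clustered and named again, and 5 E16 cells were then mesenchyme-like.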

How the results depend on the processing

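No paired analysis was possible because each stage is 1 library. None of the ratios past 2-fold turned round under the alternatives run, while that of Slc3a2, under 2-fold, did in both classes. Of the ratios of P4 over E16 under the alternatives, 142 stayed within their counting interval and 21 moved beyond it. Of the counts of members past 2-fold, 49 were equal or close to the count in the report, so not all were unchanged, and 9 moved further. Of the shares of cells with a UMI, 24 stayed and 24 moved, when unthinned or thinned to 1000 UMIs. The count of members at least 2-fold lower in P4 epithelium, 3 in the report, was 1 without abundant genes and 1 with cells weighted equally, and 5 without the Krt14-led cluster. The count at least 2-fold higher in P4 epithelium, 1 in the report, was 0 without the 5 deepest cells of each library, 0 at a minimum of 100 UMIs, where Slc1a5 is not counted, and 0 without the Dcpp-led cluster. The count at least 2-fold lower in P4 mesenchyme, 0 in the report, was 1 with each library clustered alone, 1 with classes set per cell from marker UMIs and 1 at a minimum of 10 UMIs. Without abundant genes, 14.0% of all genes were at least 2-fold lower in epithelium. For the other settings the share of all genes was not computed, so their counts are not read as a result about the members. Asns in epithelium was 1.19-fold higher in P4 with cells weighted equally. The settings without the Dcpp-led, Krt14-led or Clec3b-led clusters were chosen after seeing the data. At 500 detected genes only 5 E16 cells were mesenchyme-like, so those mesenchyme ratios rest on few cells. Clusters were made and named again at that setting, so cells could change class as well as be left out. Unless said here, the cause of a change was not tested.

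Depth limits the low members: Slc7a11 in epithelium, Trib3 and Chac1 cannot be told from 0, and shares near 1 UMI per thinned cell show no order.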
